A study of Mus musculus with 6 samples.

Results

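The cytosolic ribosomal protein genes are the genes that encode the protein part of the 2 subunits of the ribosome outside mitochondria. They were chosen by name from a table of 38776 genes, as every gene whose symbol is Rpl or Rps with a number, Rplp0 to Rplp2, or Rpsa, with names marked as pseudogenes left out. This gave 88 genes, 37 of the small subunit and 51 of the large subunit. Of these, 77 are the main genes of the ribosomal proteins and 11 are paralogs or processed pseudogenes that carry a similar name. The choice used names only and no measured value. Of the 88 genes, 83 had enough counts to be tested.

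RNA was sequenced from 661W cells kept without serum for 72 h (serum-starved) and from 661W cells kept with 10% fetal calf serum over the same 72 h (serum-fed). 661W is a single mouse line, described as of cone photoreceptor origin and taken from a retinal tumour driven by a viral T antigen, and each of its passages 24, 26 and 27 gave 1 serum-starved and 1 serum-fed culture in an independent experiment, so that n = 3 per condition. Defining markers of cones were near 0. Cone arrestin (Arr3) had 0 counts in all 6 libraries, medium wave opsin (Opn1mw) had 6 counts in all, and 10 cone genes summed to 3.28 to 5.59 CPM in serum-starved and 2.01 to 3.21 CPM in serum-fed cells.

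A ribosome is built from ribosomal RNA and a single copy of most ribosomal proteins, so the proteins are needed in matched amounts. The messengers of nearly all of them begin with a run of pyrimidines, the terminal oligopyrimidine (TOP) motif, through which the growth-regulating kinase mTORC1 and the RNA-binding protein LARP1 control their translation and stability. Serum supplies growth factors that act on this pathway, and its removal is widely used to make cultured cells leave the cell cycle and grow cilia.

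Libraries held 76932958 to 87178722 counts in serum-starved and 71970076 to 76360162 counts in serum-fed cells. Levels are given in CPM, the count of a gene scaled by the total of its library, and a count of 0 allows up to 0.0344 to 0.0417 CPM (3 counts, counting error only). Fold changes are log2 of serum-starved over serum-fed from edgeR's quasi-likelihood test with the passage as a block and are given with their standard error (SE). Log2 differences within a passage use CPM after edgeR's TMM scaling. So do counts of genes that are lower or higher in a passage or that do not overlap. Genes are called at an adjusted p (Benjamini-Hochberg over the 16168 genes tested) under 0.05.

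Ribosomal protein genes took a smaller part of the library in serum-starved cells in each of the 3 passages. Their counts made up 3.76% of the library in serum-starved and 4.37% in serum-fed cells of passage 24. In passage 26 the share was 2.25% in serum-starved and 4.25% in serum-fed cells, and in passage 27 it was 2.29% in serum-starved and 3.85% in serum-fed cells. The highest serum-starved share, that of passage 24, lay just below the lowest serum-fed share, that of passage 27. The ratio of serum-starved to serum-fed was 0.861, 0.530 and 0.594 in passages 24, 26 and 27. These are shares of polyA RNA in bulk libraries, so a lower share does not show less ribosomal protein RNA per cell, and fewer cells of a type and less RNA per cell cannot be told apart.

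**Figure D1:**
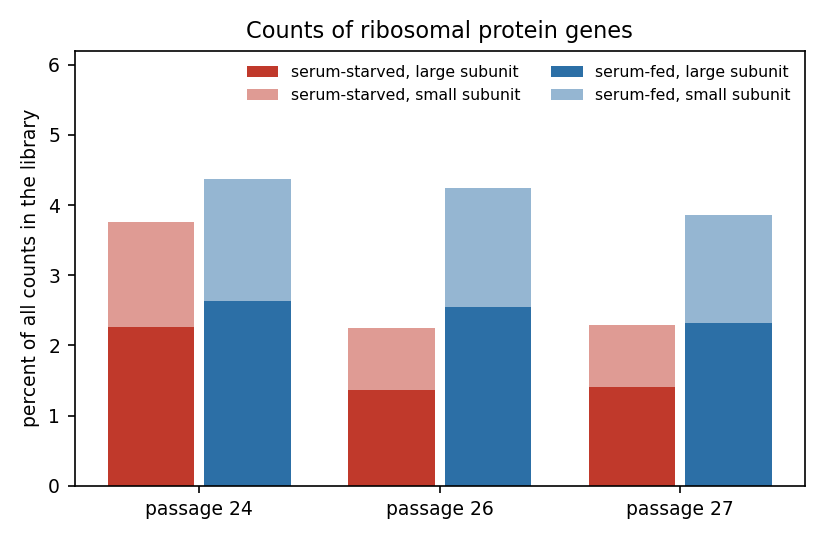
Percent of all counts of a library that fell on ribosomal protein genes (vertical axis), for serum-starved (red, left bar) and serum-fed (blue, right bar) cells of each passage, split into large (dark) and small (light) subunit genes, 1 library per bar. The serum-starved bar is the lower in each passage, with 3.76% against 4.37% in passage 24 and 2.25% against 4.25% in passage 26.

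Genes of both subunits were lower in serum-starved cells. The counts of large subunit genes were 1.50, 1.52 and 1.57 times those of small subunit genes in serum-starved cells of passages 24, 26 and 27, against 1.51, 1.49 and 1.50 times in serum-fed cells. The 31 main genes of the small subunit had a median log2 fold change of −0.70, with 9 called lower. The 46 main genes of the large subunit also had a median of −0.70, with 12 called lower, where 1.6% of all genes were called lower. None of these calls was kept without passage 26 or without passage 27, where 0.660% and 0.399% of all genes were called lower.

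Nearly every gene moved the same way. Of the 83 genes tested, 82 had a negative log2 fold change, and 80 were lower in serum-starved than in serum-fed cells in all 3 passages, against 24.2% of all genes tested. After TMM scaling, all 3 serum-starved libraries lay below all 3 serum-fed libraries in 31 genes, against 5.99% of all genes. In 0 genes they all lay above, against 6.78%. The median log2 fold change was −0.70, which is 61.7% of the serum-fed level, against a median of −0.00 over all genes. The SD of the log2 fold changes of the 77 main genes was 0.15, against 0.66 over all genes, and 69 of the 77 lay between −0.9 and −0.5. Lists described below also had small SDs, of 0.17 in mitochondrial ribosomal proteins, 0.18 in ribosome biogenesis and 0.20 in other TOP messengers. The list of mTORC1, LARP1 and MYC control had 0.52. In the same order, 45 of 75, 40 of 44, 18 of 19 and 5 of 24 genes were lower in all 3 passages.

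Fewer single genes passed the test. At an adjusted p under 0.05, 23 of the 83 genes were called lower and 0 higher, where 1.6% of all genes were called lower and 3.48% higher. Another 44 had an adjusted p from 0.05 to 0.1, and 77 were lower at an unadjusted p under 0.05, against 11.1% of all genes. The smallest adjusted p was 0.0370 (edgeR), and 0 genes passed an adjusted p under 0.01, a level that 0.118% of all genes passed as lower. The number called depended on which passages were used. It was 69 without passage 24, 0 without passage 26 (66 at an unadjusted p under 0.05) and 0 without passage 27 (62 at an unadjusted p under 0.05). In the same fits 3.13%, 0.660% and 0.399% of all genes were called lower. The median log2 fold change of the members was −0.88, −0.54 and −0.62. Without the passage in the edgeR model 0 members were called, where 0 of all genes were called lower and 4 higher. At an unadjusted p under 0.05, 41 members were lower in that model. The share of all genes at an unadjusted p was not worked out for these alternative fits. With the passage, 73 members were called lower by DESeq2, against 6.03% of all genes, and 46 by limma-voom, against 2.07%.

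**Figure D2:**
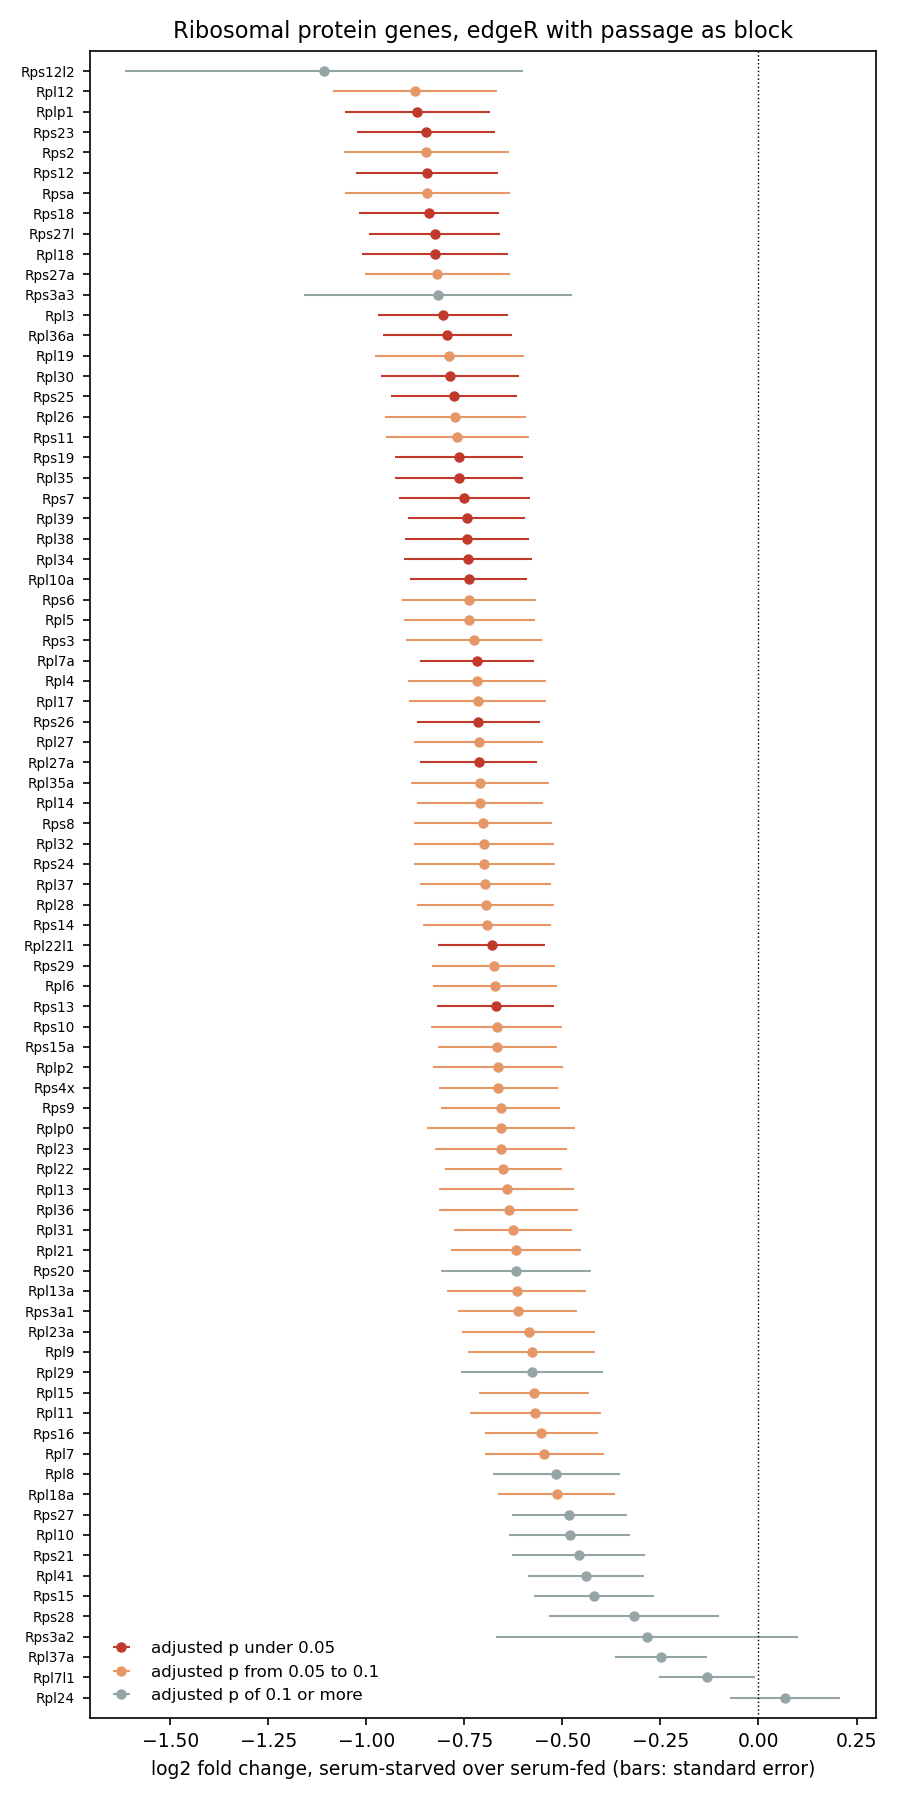
Log2 fold change of serum-starved over serum-fed cells (horizontal axis) with its standard error (bars) for 81 of the 83 ribosomal protein genes tested, ordered from the most negative at the top, with colour giving the adjusted p in edgeR (n = 3 per condition). All but Rpl24 lie left of 0, and most main genes lie between −0.9 and −0.5. Rps28, the pseudogene Rps3a2, Rpl37a, Rpl7l1 and Rpl24 stand apart at the lower end.

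The size of the fall differed between passages. Over the 83 genes, the median log2 difference of serum-starved and serum-fed cells was −0.28 in passage 24, −0.96 in passage 26 and −0.84 in passage 27, so that the median gene stood at 0.825, 0.514 and 0.560 of its serum-fed level. After TMM scaling, all 77 main genes were lower in serum-starved cells of passage 24, 75 in passage 26 and 76 in passage 27. For 75 of the 77, the log2 difference was the highest, and so the least negative, in passage 24. The coefficient of variation over the 3 libraries of a condition had a median of 33.2% in serum-starved and 9.84% in serum-fed cells. Each passage has 1 library per condition, so the difference between passages in the response was not tested.

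**Figure D3:**
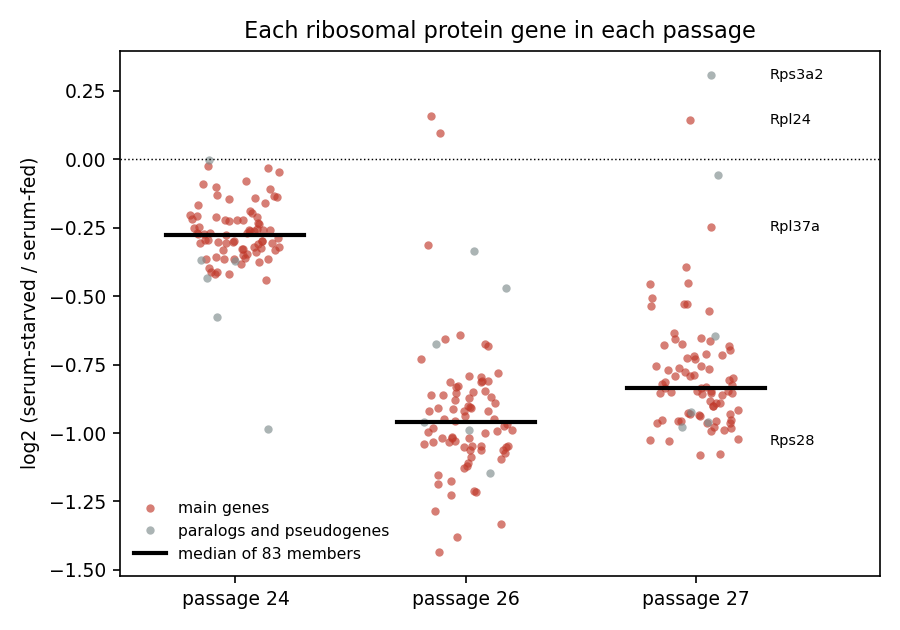
Log2 of the serum-starved over the serum-fed level (vertical axis) of each ribosomal protein gene tested, by passage, with main genes in red, paralogs and pseudogenes in grey and the median of all 83 as a black line. The medians lie at −0.28, −0.96 and −0.84 in passages 24, 26 and 27, and only a few genes reach or pass 0, among them Rpl24 and Rps28 in passage 26.

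Skeletal muscle genes, which mark another cell type, also differed between conditions. The markers of skeletal muscle summed to 68.3, 967 and 337 CPM in serum-starved cells of passages 24, 26 and 27. The sums in serum-fed cells were 63.6, 211 and 98.0 CPM. Of the 14 tested, 10 were called higher, against 3.48% of all genes, and none of the 14 was at 0 in all libraries. Myh3, the embryonic myosin heavy chain, had 11.8, 220 and 79.2 CPM in serum-starved cells, against 1.85, 30.0 and 11.7 CPM in serum-fed cells. The median log2 difference of the 14 markers was 1.10, 2.18 and 1.79 in passages 24, 26 and 27. Of the 14, 12 were higher in all 3 passages, against 22.7% of all genes. The close sums of passage 24 hold a lower Myod1, a muscle transcription factor, with 8.68 CPM in serum-starved and 38.9 CPM in serum-fed cells. The part of these genes in the fall of the ribosomal protein genes was not tested. Of 8 proliferation markers, 0 were called by edgeR and 0 had an unadjusted p under 0.05, with a median log2 fold change of −0.02. Of the 10 cone genes, 5 had enough counts to be tested, and 1 was called higher by edgeR, against 3.48% of all genes. The median log2 fold change of the 5 was 0.60.

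The stalk of the large subunit recruits the GTPases that drive translation, and all 4 of its genes had lower levels in serum-starved cells. Rplp1 (chr9:61913284-61914542, GRCm38), which encodes an acidic stalk protein, had 1627, 915 and 928 CPM in serum-starved cells of passages 24, 26 and 27, against 2088, 2044 and 1754 CPM in serum-fed cells. The groups did not overlap, and the log2 fold change was −0.87 (SE 0.19, adjusted p = 0.0441 in edgeR). Scaled by transcript length, Rplp1 was the most abundant of all members, with 2318 CPM per kb in serum-starved and 3932 CPM per kb in serum-fed cells. Rpl12, at the base of the stalk, had 976, 434 and 489 CPM in serum-starved cells, against 1194, 1121 and 852 CPM in serum-fed cells. Its serum-starved library of passage 24 lay above the serum-fed library of passage 27, and its log2 fold change of −0.88, the most negative of the main genes, missed the threshold (adjusted p = 0.0579 in edgeR). Rplp0, which anchors the stalk, stood at a log2 fold change of −0.66 (adjusted p = 0.0890), and Rplp2, the partner of Rplp1, also had −0.66 (adjusted p = 0.0641).

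Genes of the mRNA entry channel and the decoding site had a median log2 fold change of −0.83. Rps23, which sits at the decoding site, had 266, 149 and 151 CPM in serum-starved cells, against 329, 324 and 291 CPM in serum-fed cells. All 3 serum-starved libraries lay below the serum-fed ones, and the log2 fold change was −0.85 (SE 0.18, adjusted p = 0.0408 in edgeR). Rps2 had 779, 300.5 and 299 CPM in serum-starved cells, against 907, 748 and 534 CPM in serum-fed cells, with overlap between the groups. Its log2 fold change was also −0.85, at an adjusted p = 0.0630 in edgeR. Rps3, which lines the entry channel and also acts in DNA repair, stood at a log2 fold change of −0.73 (adjusted p = 0.0581).

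Rps6, the classical substrate of the S6 kinases below mTORC1, had 312, 171 and 186 CPM in serum-starved cells, against 368, 349 and 319 CPM in serum-fed cells. Its log2 fold change was −0.74 (SE 0.17, adjusted p = 0.0526 in edgeR), close to the median of all members. Rpsa, also known as a laminin receptor, had 1393, 661 and 686 CPM in serum-starved cells, against 1613, 1592 and 1263 CPM in serum-fed cells, which overlap through passage 24 (log2 fold change −0.84, adjusted p = 0.0641 in edgeR). Rps27a, which is made as a fusion with ubiquitin, stood at a log2 fold change of −0.82 (adjusted p = 0.0507).

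The lowest adjusted p values of main genes belonged to the large subunit. Rpl39 (chrX:37082520-37085402), a small protein of the exit tunnel, had 198, 161 and 160 CPM in serum-starved cells (mean 173 ± 22.0, SD, n = 3), against 250, 301 and 281 CPM in serum-fed cells (mean 278 ± 25.7, SD, n = 3). The groups did not overlap, and the log2 fold change was −0.74 (SE 0.15, adjusted p = 0.0370 in edgeR). Rpl10a, of the L1 stalk near the exit site for transfer RNA, had 178, 123 and 122 CPM in serum-starved cells, against 227, 244 and 200 CPM in serum-fed cells. This also gave no overlap and a log2 fold change of −0.74 (adjusted p = 0.0383 in edgeR). Rpl7a fell by 0.72 on the log2 scale (adjusted p = 0.0389 in edgeR). Rpl3, which reaches the peptidyl transferase centre, fell by 0.80 (adjusted p = 0.0405 in edgeR). The other genes of that centre had smaller values, with −0.52 for Rpl8 and −0.48 for Rpl10, the protein that joins late in the maturation of the large subunit (adjusted p = 0.109 and 0.114).

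Rpl5 and Rpl11 form, with 5S ribosomal RNA, the particle that binds Mdm2 and so stabilises p53 when ribosome assembly fails. Rpl5 had 507, 389 and 324 CPM in serum-starved cells, against 603, 727 and 600.0 CPM in serum-fed cells, without overlap (log2 fold change −0.74, adjusted p = 0.0507 in edgeR). Rpl11 had 393, 217 and 266 CPM in serum-starved cells, against 452, 415 and 352 CPM in serum-fed cells, with overlap (log2 fold change −0.57, adjusted p = 0.0934 in edgeR). Of 9 genes that are mutated in human Diamond-Blackfan anaemia, these among them, all 9 were lower in all 3 passages. The same held for 80 of the 83 members and for 24.2% of all genes. The median log2 fold change of the 9 was −0.71, against −0.70 over the members. The share of all genes called lower by edgeR was 1.6%. Rps19, the most often mutated of the 9, was called by edgeR (−0.76, adjusted p = 0.0441), as were Rps7 (−0.75, 0.0482) and Rps26 (−0.71, 0.0471). Rps24 (−0.70), Rps10 (−0.67) and Rpl35a (−0.71) were not.

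A few main genes had smaller changes. Rpl24 (chr16:55966275-55971435, GRCm38) had 24.9, 35.5 and 36.2 CPM in serum-starved cells, against 25.6, 30.4 and 31.8 CPM in serum-fed cells, which overlap. It was the only one of the 83 with a positive log2 fold change (0.07, SE 0.14, adjusted p = 0.807 in edgeR), and the lowest main gene in CPM. In the GENCODE M21 annotation, 71.5% of its transcript is overlapped on the same strand by the predicted gene Gm28037. Reads that fall on 2 genes are not counted in HTSeq's union mode. Counting used the UCSC gene model of mm10, and no gene analysed here carries the name Gm28037, though names can differ between annotations. The part of the overlap in the value for Rpl24 was not tested. A same-strand overlap of over 50% was also found for Rps10 (53.6%) and Rpl13a (59.3%), whose log2 fold changes were −0.67 and −0.62.

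Rps28, near the exit of the mRNA channel, differed most between passages. It had 131, 115 and 78.5 CPM in serum-starved cells of passages 24, 26 and 27, against 129, 102 and 155 CPM in serum-fed cells. Its level was higher in serum-starved cells in passages 24 and 26 and lower in passage 27 in CPM, and after TMM scaling the log2 differences were −0.03, 0.10 and −1.03. The log2 fold change of −0.32 (SE 0.22, adjusted p = 0.417 in edgeR) thus rested on passage 27 and was 0.04 without it. Rpl37a had 254, 201 and 191 CPM in serum-starved cells, against 278, 238 and 219 CPM in serum-fed cells, with overlap. It was lower in each passage by a like amount, −0.19, −0.31 and −0.25 on the log2 scale, and its log2 fold change of −0.25 (SE 0.12) had an adjusted p = 0.246 in edgeR. Rps15, Rpl41 and Rps21 had −0.42, −0.44 and −0.46, none of them called.

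**Figure D4:**
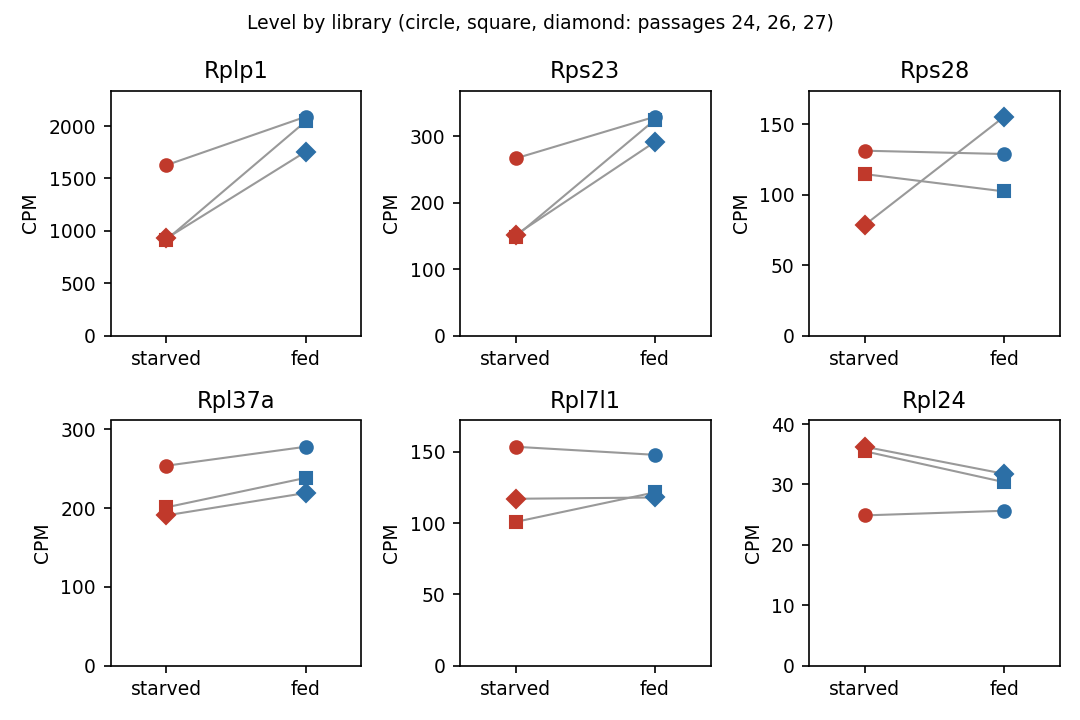
Level in CPM (vertical axis, from 0) of 6 genes in serum-starved (red, left) and serum-fed (blue, right) cells, with lines joining libraries of the same passage. Rplp1 and Rps23 are lower in serum-starved cells of each passage without overlap, while Rps28, Rpl37a, Rpl7l1 and Rpl24 overlap between conditions. Rpl37a is lower in serum-starved cells of each passage, and Rps28 only in passage 27.

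Of the 6 paralogs and pseudogenes with enough counts, 2 were called lower, where 1.6% of all genes were. Neither call was kept without passage 26 or without passage 27, where 0.660% and 0.399% of all genes were called lower. Rps27l, a paralog of Rps27 that p53 is known to induce, had 184, 109 and 81.9 CPM in serum-starved cells, against 228, 231 and 154 CPM in serum-fed cells, and was called (log2 fold change −0.83, adjusted p = 0.0389 in edgeR). Rps27 itself had −0.48 (adjusted p = 0.101). Rpl22l1 had 65.5, 70.5 and 47.8 CPM in serum-starved cells, against 85.1, 131 and 72.4 CPM in serum-fed cells, without overlap, and was called (−0.68, adjusted p = 0.0378 in edgeR) at a value near that of Rpl22 (−0.65, adjusted p = 0.0517). Rpl7l1 had 153, 101 and 117 CPM in serum-starved cells, against 148, 121 and 118 CPM in serum-fed cells (−0.13, adjusted p = 0.558 in edgeR), where Rpl7 had −0.55 (adjusted p = 0.0828).

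Within a library, the ratio of a paralog to its main gene does not depend on scaling. The log2 ratio of Rps27l to Rps27 was lower in serum-starved cells in all 3 passages, by a mean of −0.34, and that of Rpl7l1 to Rpl7 was higher in all 3, by a mean of 0.41. An exact two-sided sign-flip permutation test over 3 passages gave p = 0.25 for each, the smallest it can give, and 0.417 after adjustment over the 5 ratios compared. The ratio of Rpl22l1 to Rpl22 differed by a mean of −0.03 (exact p = 0.75). The processed pseudogenes Rps3a2 and Rps3a3 and Rps12l2, which GENCODE M21 does not list, had levels under 1 CPM in every library, with adjusted p of 0.697, 0.197 and 0.234 in edgeR. Too few counts for a test were found for Rpl10l (0 counts over all 6 libraries), Rpl3l (16 counts), the muscle form of Rpl3, Rpl39l (6 counts), Rps4y2 (2 counts) and Rps12l1 (1 count).

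Ribosomal protein genes have many processed copies in the genome, and a read that matches several places may be lost from the count. Of the stretches of 75 bases (the read length) in a main gene's transcript, 0% (Rps3) to 98.5% (Rps27) occurred in a transcript of another gene. The 13 main genes that shared under 20% had a median log2 fold change of −0.70, the 34 that shared 20 to 60% had −0.67, and the 30 that shared over 60% had −0.72. The 221 pseudogene entries named for these genes took 0.262 to 0.341 counts in serum-starved and 0.275 to 0.293 counts in serum-fed cells per 100 counts of the members.

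Since these messengers are known for the sequence at their start, promoters annotated by RefSeq (GRCm38.p6) were read for 57 of the 77 main genes, as 300 bases that run from 250 before the start to 50 after. A C at the start followed by 4 pyrimidines (C or T) was found in 13 of the 57 genes (22.8%), against 3.01% of all genes with a promoter. A run of 8 pyrimidines within 25 bases of the start was found in 30 (52.6%), against 22.3%. The letters CCGGAAG, the core bound by ETS family factors such as GABP, stood on either strand in 24 (42.1%), against 9.93%. These matches are descriptions of letters and not of bound sites. The median log2 fold change was −0.71 in genes with the run of 8 and −0.66 in those without it. It was −0.70 with the C start and −0.71 without it, and −0.73 with CCGGAAG and −0.67 without it.

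The start regions of the 5 genes with the largest falls and the 4 with the smallest changes are shown, among genes with 1 annotated promoter, 5′ to 3′ on the strand of the gene, from 10 bases before the annotated start to 20 after it. Capitals mark the longest run of pyrimidines in the 30 bases (the first of several equal ones in Rpl37a and Rpl7l1), and the annotated start is the base after the first 10. The 5 genes with the largest falls, at a log2 fold change of −0.88 to −0.84, were as follows.
Rpl12 (chr2:32961702-32961731, + strand): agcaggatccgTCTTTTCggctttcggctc
Rps23 (chr13:90923112-90923141, + strand): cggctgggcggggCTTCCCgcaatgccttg
Rps2 (chr17:24720053-24720082, + strand): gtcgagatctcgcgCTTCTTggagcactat
Rps12 (chr10:23787190-23787219, − strand): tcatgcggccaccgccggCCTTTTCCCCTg
Rpsa (chr9:120127756-120127785, + strand): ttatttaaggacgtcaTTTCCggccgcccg

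The 4 genes with the smallest changes, at −0.32 to 0.07, had shorter runs in this window. Among them, Rpl7l1 is a paralog and not a main gene. The fall of Rps28 rested on passage 27, and Rpl24 is overlapped on the same strand by a predicted gene.
Rps28 (chr17:33824543-33824572, − strand): cgcgtgcggTCTCgcgagagcgaaagtgag
Rpl37a (chr1:72711250-72711279, + strand): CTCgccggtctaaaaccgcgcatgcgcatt
Rpl7l1 (chr17:46782637-46782666, − strand): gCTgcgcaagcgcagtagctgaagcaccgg
Rpl24 (chr16:55966265-55966294, + strand): gctgttgctaggaaacagactgggcgCTCg

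The longest run was 7, 6, 6, 11 and 5 bases in Rpl12, Rps23, Rps2, Rps12 and Rpsa, against 4, 3, 2 and 3 bases in Rps28, Rpl37a, Rpl7l1 and Rpl24. In Rpl12, Rps23, Rps2, Rps12 and Rpsa the run began after the annotated start and not at it. These 9 genes were picked by the size of their change, so the comparison is a description with no test. Over all main genes with a promoter read, the median log2 fold change was −0.71 with the run of 8 and −0.66 without it. With the C start it was −0.70, and without the C start −0.71. A link between run length and the size of the fall was not tested. Whether the annotated starts are those used in 661W cells was not tested.

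In the main edgeR fit, members were called for the passage, whatever the condition, at a share near that of all genes. Of the 83 genes, 9 were called for the passage in edgeR, against 14% of all genes, namely Rpl14, Rpl27a, Rpl41, Rpl7a, Rpl8, Rplp2, Rps2, Rps21 and Rps27l. After TMM scaling Rps2 had 795, 289 and 287 CPM in serum-starved cells of passages 24, 26 and 27, against 964, 752 and 529 CPM in serum-fed cells. Passage 24 was the highest of the 3 in both conditions for Rps2. The number called for the passage was 0 without passage 24, 38 without passage 26 and 0 without passage 27, and it was 2 with library totals and 32 in DESeq2. For these alternative fits the share of all genes called for the passage was not worked out, so the counts have no background to be read against.

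Over the 3 passages together, other lists of translation and its control had medians closer to 0 than the ribosomal proteins. In passage 24 the medians of the TOP messengers (−0.38) and of ribosome biogenesis (−0.33) lay further from 0 than that of the ribosomal proteins (−0.28). Of 4 ribosomal proteins that the name rule leaves out, 0 were called by edgeR and 2 by DESeq2, with 3 lower at an unadjusted p under 0.05. Gnb2l1, the scaffold protein Rack1 of the small subunit, had the most negative value (−0.70, adjusted p = 0.0572 in edgeR), and Fau, which is made as a fusion with a ubiquitin-like protein, had −0.44. Of 19 other messengers with a TOP motif, 4 were called lower by edgeR, against 1.6% of all genes. The median log2 fold change of the 19 was −0.54, with medians of −0.38, −0.72 and −0.48 in passages 24, 26 and 27. The 4 called by edgeR were the poly(A)-binding protein Pabpc1 (−0.96, adjusted p = 0.0198), the elongation factor subunits Eef1b2 (−0.82, 0.0402) and Eef1g (−0.86, 0.0404), and the nucleolar chaperone Npm1 (−0.77, 0.0441). Pabpc1 had 631, 424 and 420 CPM in serum-starved cells, against 928, 895 and 876 CPM in serum-fed cells, without overlap. Without passage 26 and without passage 27, 1 and 0 of the 19 were called, where 432 and 334 of all genes were called in either direction (820 in the main fit).

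The 44 genes of ribosome biogenesis, which make and process ribosomal RNA and assemble the subunits, had a median log2 fold change of −0.51. Of these, 0 were called by edgeR and DESeq2 called 18. In edgeR, 35 were lower at an unadjusted p under 0.05, against 11.1% of all genes. The medians of the 44 were −0.33, −1.03 and −0.26 in passages 24, 26 and 27, where the ribosomal proteins had −0.28, −0.96 and −0.84. Of the 44, 28 were called for the passage in edgeR, against 14% of all genes. Wdr12, of the PeBoW complex, had 67.7, 39.9 and 27.1 CPM in serum-starved cells, against 84.2, 96.6 and 44.6 CPM in serum-fed cells (−0.83, adjusted p = 0.0505 in edgeR). The mitochondrial ribosome, with 75 genes tested, had a median of −0.33, with 0 called by edgeR and 10 by DESeq2. At an unadjusted p under 0.05 in edgeR, 31 were lower, against 11.1% of all genes.

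Of 24 genes of mTORC1, LARP1 and MYC control, 0 were called by edgeR (5 by DESeq2, and 4 lower and 3 higher at an unadjusted p under 0.05), with a median log2 fold change of 0.08. Larp1 had 183, 162 and 160 CPM in serum-starved cells, against 233, 239 and 202 CPM in serum-fed cells, without overlap (−0.47, adjusted p = 0.0687 in edgeR). Myc, a transcription factor that drives ribosome production, had 113, 30.1 and 30.2 CPM in serum-starved cells, against 123, 118 and 48.6 CPM in serum-fed cells (−0.97, adjusted p = 0.115 in edgeR). Mxd4, which opposes MYC, had 0.93 (adjusted p = 0.0636), and Sesn1, an inhibitor of mTORC1, had 0.74 (adjusted p = 0.0689).

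**Figure D5:**
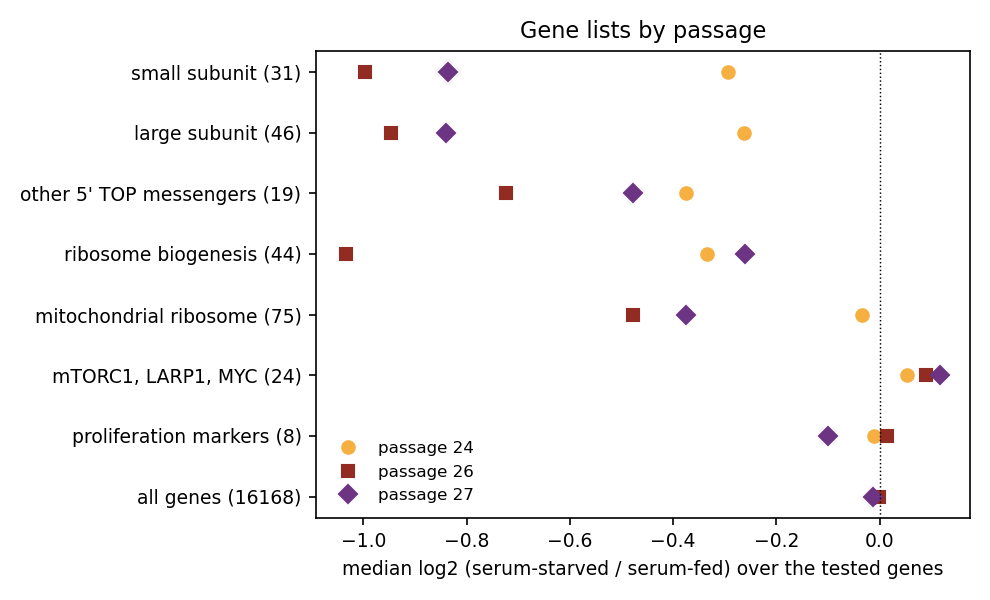
Median log2 of serum-starved over serum-fed level (horizontal axis) of gene lists by passage (circle 24, square 26, diamond 27), with the number of genes tested in brackets. Both ribosomal subunits lie furthest to the left in passage 27, ribosome biogenesis does so in passage 26 (−1.03) but not in passage 27 (−0.26), and the median of all genes lies near 0.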

How the data were processed

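RNA-seq libraries were made by the authors from polyA-selected RNA with a stranded kit and sequenced as single-end reads of 75 bases. Reads were aligned to GRCm38 (mm10) with STAR and counted per gene with HTSeq (union mode, reverse strand), and the deposited values are raw counts per gene without normalization. For STAR and HTSeq the version is not given in the sources used here. A further deposited table holds the authors' own DESeq2 comparison (log2 fold changes, standard errors and p-values) and was not used.

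The count table held 38803 rows. Rows named by a date (27, with 0.223% to 0.301% of the counts) were dropped, which leaves 38776. Counts were tested with edgeR 4.0.16 in R 4.3.3 (filterByExpr, TMM factors of 0.941 to 1.04, glmQLFit and glmQLFTest), with condition and passage as terms. The passage was kept as a block because both conditions were made from cells of the same passage, as the labels give it. After condition means were removed, log2 CPM of the same passage correlated at 0.675, 0.273 and 0.605 in passages 24, 26 and 27, where the highest value with another passage was −0.147, 0.251 and 0.251. Paralog ratios were compared with an exact sign-flip test. Alternatives were edgeR without the passage, DESeq2 1.42.0 with and without it, limma-voom (limma 3.58.1), other scalings and filters, pseudogene counts added, and each passage left out. The scripts were tested on simulated data. Figures were drawn with matplotlib 3.10.9.

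Positions, transcript lengths, overlaps and shared sequence come from GENCODE M21 on GRCm38, and promoters from RefSeq (GRCm38.p6). Members were named by rule: those of fixed roles in the ribosome, paralogs and their main genes, the 6 with the smallest p per direction, those with the highest and lowest level, and up to 4 genes per other list. Rps28, Rpl37a, Rps15, Rpl41, Rps21, Rps23 and the genes whose start regions are shown were added after their values were seen, as were Arr3, Opn1mw, Myc, Rps12 and Rpl13a where named outside that rule. A few members covered by this rule are not reported here by name. The members and lists were chosen with earlier results of these data known.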

Additional observations from a re-analysis of the deposited data

How the results depend on the processing

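The median log2 fold change of the ribosomal protein genes lay between −0.70 and −0.64 under all tools, scalings and filters tried, and between −0.88 and −0.54 with 1 passage left out. At least 81 of them had a negative value under every alternative. The mean share of the library in serum-starved over that in serum-fed cells was 0.666 and lay between 0.560 and 0.736 with 1 passage left out. The number of members called was less stable, and for the changes that follow the cause was not tested.

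Without the replicate block for passage, edgeR called 0 members, 4 genes in all (820 with it) and 0 TOP messengers. DESeq2 without the block, chosen after seeing the data, called 2 members, 328 genes and 1 TOP messenger. DESeq2 with the block called 73 members, 2011 genes, 2 of the left-out ribosomal proteins, 14 TOP messengers, 18 biogenesis genes, 5 control genes and 10 mitochondrial ribosome genes, and 32 members for the passage. Limma-voom called 46 members, 1 left-out protein and 2 biogenesis genes. Library totals without scaling gave 13 members, and 2 for the passage. With no filter on low counts, 70 members, 1811 genes, 1 left-out protein, 11 TOP messengers, 14 biogenesis genes, 5 control genes and 5 mitochondrial ribosome genes were called, and 29 members for the passage. At an adjusted p under 0.01 the number was 0 members. The filter of 10 counts in every library gave 16, RLE size factors 25, TMM without the members 24 and added pseudogene counts 24.

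With 1 passage left out, calls ranged from 0 to 69 members, from 334 to 1356 genes, from 0 to 1 left-out proteins, from 0 to 5 TOP messengers, from 0 to 1 biogenesis genes, from 0 to 3 control genes, from 0 to 10 mitochondrial ribosome genes, and from 0 to 38 members for the passage. Among single genes the direction turned for Rps28, whose log2 fold change with 1 passage left out ranged from −0.52 to 0.037. The log2 ratio of Rpl22l1 to Rpl22 differed by −0.079 to 0.0085. The 5 untested members had 0 to 16 counts over all 6 libraries, too few for a test at this depth.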
